A study of Mus musculus with 24 samples.

Results

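The Hoxc cluster on mouse chromosome 15 was followed through the 9 HindIII restriction fragments on which its promoters were captured in promoter capture Hi-C, an assay that ligates DNA ends lying close together in the nucleus and then pulls down the ligations that involve a promoter. A fragment was taken if it was a captured bait in the window from 102.91 to 103.04 Mb of chromosome 15 (GRCm38, mm10) and held an annotated end of Hoxc4, Hoxc5, Hoxc6, Hoxc8, Hoxc9, Hoxc10, Hoxc11, Hoxc12 or Hoxc13, or lay within 1 kb of one. This gave 9 of 22203 baits, one for each gene. They took part in 1996 of the 1242966 distinct interactions called in at least 1 of the 24 libraries, and in 17849 of 4021863 calls over all libraries. In cluster order the fragments were chr15:102919362-102922855 (Hoxc13), chr15:102933875-102938548 (Hoxc12), chr15:102952032-102954971 (Hoxc11), chr15:102958921-102968000 (Hoxc10), chr15:102972802-102980823 (Hoxc9), chr15:102987678-102994892 (Hoxc8), chr15:102997804-103004970 (Hoxc6), chr15:103013353-103016608 (Hoxc5) and chr15:103018295-103021040 (Hoxc4). The first 8 hold the annotated start of their gene. The Hoxc4 fragment holds no annotated end and was taken because the outermost annotated start of Hoxc4 lies 198 bp from it. A further captured fragment in the window, chr15:102948385-102950062 between Hoxc12 and Hoxc11, is named by the long noncoding RNA Hotair, fell outside the rule and is given for comparison only.

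Hox genes encode homeodomain transcription factors that give cells of the trunk and limbs their position along the head-to-tail axis, and they lie in clusters whose gene order follows the order of their expression domains. Hoxc4 is at the anterior end of the Hoxc cluster and Hoxc13 at the posterior end. Where Hox genes are silent, their clusters carry the histone mark H3K27me3, which Polycomb repressive complex 2 deposits through its catalytic subunit Ezh2, and Polycomb-bound promoters can gather in the nucleus across a cluster and between chromosomes. Cranial neural crest cells migrate from the dorsal neural tube into the face and pharyngeal arches. Those of the frontonasal region and first arch are known as Hox-negative, and those of the second arch express Hoxa2.

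The labels give 12 groups of 2 libraries each, described as biological replicates of cranial neural crest cells of the mouse. Progenitors were taken at embryonic day (E) 8.5 from wild-type (WT) embryos. At E11.5 the tissues FNP, Mx, Md and PA2 were each taken from WT and from Ezh2cKO embryos, Md and PA2 from embryos with the Hoxa2PTE-36kb-del allele, and PA2 from embryos with Hoxa2PTE-42kb-del. Cells of Wnt1::Cre;ROSARFP embryos, in which a Wnt1 driver labels neural crest cells with a red reporter, and of Ezh2cKO embryos were sorted. The sources used here do not give the driver of the Ezh2 deletion, the position of the Hoxa2PTE deletions or whether their cells were sorted. A library held 142284 to 190343 called interactions, of which 2.94% to 4.35% joined different chromosomes. No read counts came with the calls, so the read depth is unknown, and every library has a batch label of its own, so batch could not be tested. Expression was not measured, so the cell type could not be checked by marker RNA. The replicate pairs shared 0.532 to 0.712 of the interactions of the 9 fragments (Jaccard index, the interactions in both libraries over those in either, median 0.649 over 12 pairs), against a median of 0.426 between WT and Ezh2cKO libraries at E11.5.

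The cluster also holds microRNA genes on its captured fragments, and no effect of theirs on contacts was tested. The fragment named here for Hoxc9 carries Mir196a-2 (mature miRNA at chr15:102973365-102973386, plus strand), and the Hoxc5 fragment carries Mir615 (chr15:103014969-103014990, plus strand). Copies of the miR-196 family, which targets Hox transcripts, also lie in the Hoxb cluster (Mir196a-1, chr11:96265187-96265208) and the Hoxa cluster (Mir196b, chr6:52230129-52230150, minus strand), and Mir10a lies beside Hoxb4 (chr11:96317186-96317208). All 3 of those fragments outside the Hoxc cluster were called as trans partners of Hoxc fragments, as given below, so the mature sequences are shown with the seed, bases 2 to 8, in capitals. The sequences and positions are those of RefSeq on GRCm38.
miR-196a-5p (Mir196a-2 and Mir196a-1): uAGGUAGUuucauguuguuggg
miR-196b-5p (Mir196b): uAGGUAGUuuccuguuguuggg
miR-615-3p (Mir615): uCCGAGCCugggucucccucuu
miR-10a-5p (Mir10a): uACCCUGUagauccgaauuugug
The seed AGGUAGU was shared by the miRNAs of all 3 miR-196 genes, one in each of the Hoxc, Hoxb and Hoxa clusters, while miR-615-3p and miR-10a-5p each had another seed.

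A pair of promoters is shown because contacts described below end on or beside them: Hoxc4, here the promoter of a transcript that starts further inside the annotated gene than its outermost start, in the uncaptured fragment chr15:103021135-103037828 at the end of the cluster, and Hoxb8 on chromosome 11, from the region of the most recurrent trans pair. Each is the 250 bases before the annotated start (RefSeq, GRCm38, plus strand), with every CG dinucleotide, the site of DNA methylation and a mark of CpG islands, in capitals.
Hoxc4 promoter, chr15:103034145-103034394: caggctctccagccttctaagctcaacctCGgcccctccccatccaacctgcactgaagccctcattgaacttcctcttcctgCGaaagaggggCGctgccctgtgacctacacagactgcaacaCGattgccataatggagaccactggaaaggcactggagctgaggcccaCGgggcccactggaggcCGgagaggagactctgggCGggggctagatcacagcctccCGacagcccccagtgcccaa
Hoxb8 promoter, chr11:96281655-96281904: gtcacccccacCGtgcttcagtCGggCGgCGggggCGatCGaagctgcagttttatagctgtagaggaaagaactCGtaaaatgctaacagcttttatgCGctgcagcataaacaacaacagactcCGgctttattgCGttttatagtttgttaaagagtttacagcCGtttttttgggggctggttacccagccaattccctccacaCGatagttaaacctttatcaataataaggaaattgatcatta
The Hoxc4 window held 8 CG dinucleotides at 62% G and C, and 43.0% of 32851 promoter windows held at least as many. The Hoxb8 window held 12, which 33.5% of windows reached. These counts describe the letters of the windows and draw nothing about binding.

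In WT cells at E11.5 the 9 promoters were joined to nearly the whole cluster. The cluster was taken as the 117 kb from the start of the Hoxc13 fragment to the annotated end of Hoxc4. It was overlapped by 26 HindIII fragments that were in a called interaction of any bait. Each promoter thus had 25 possible partners counted inside it, and fragments without any call were not counted. Hoxc13, a gene of hair and nail formation at the posterior end, had 22 to 23 called partners in the cluster in the 8 WT libraries (median 23). Hoxc12 had 23 to 24 (median 24), the most of the 9. Hoxc6, a gene of the thoracic and forelimb level, had 22 in all 8 libraries. Hoxc4, a gene of the neck level, had 17 to 23 (median 20), which includes the lowest single value, and Hoxc10 and Hoxc5, each with 19 to 22, had the same median of 20. Hoxc11 had 20 to 22, Hoxc9 20 to 23 and Hoxc8 21 to 23. Counted as distinct interactions inside the cluster, each library had 154 to 163 of 189 possible pairs with these fragments. The FNP libraries had 163 and 154, the Mx libraries 160 and 159, the Md libraries 157 and 158 and the PA2 libraries 163 each, so that no tissue lay outside the span of the FNP replicates.

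In Ezh2cKO cells these contacts inside the cluster were fewer for all 9 promoters. Hoxc13 kept 2 to 7 partners in the cluster (median 5.5) and Hoxc4 kept 0 to 9 (median 4), so the fragments at the opposite ends of the cluster were left with the fewest. Hoxc12 kept 5 to 17 (median 12.5), Hoxc11 4 to 13 (median 8.5) and Hoxc10 3 to 18 (median 14). These are posterior genes, of the lumbar and hindlimb level and below, and no Ezh2cKO value of theirs reached the lowest WT value. Hoxc9, known for thoracic motor neuron identity, kept 5 to 15 (median 10), and Hoxc8, a gene of the brachial and thoracic level, kept 5 to 15 (median 9.5). Hoxc6 kept 7 to 20 (median 15.5), again wholly below WT. Hoxc5, which with Hoxa5 acts in motor neurons of the diaphragm, was the exception: its 10 to 20 partners (median 14.5) overlapped the WT range of 19 to 22. The count of distinct interactions inside the cluster fell from 154 to 163 in WT to 47 to 96 in Ezh2cKO. It was 76 and 79 in FNP, 81 and 65 in Mx, 78 and 96 in Md and 61 and 47 in PA2, so the lowest value came from the second PA2 library. That library was also the one with the most trans calls in all, 7927, and the part of this in its Hoxc values was not tested. Without any single Ezh2cKO library the mean stayed between 69.6 and 76.6, against 159.6 ± 3.3 (SD, n = 8) in WT.

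**Figure D1:**
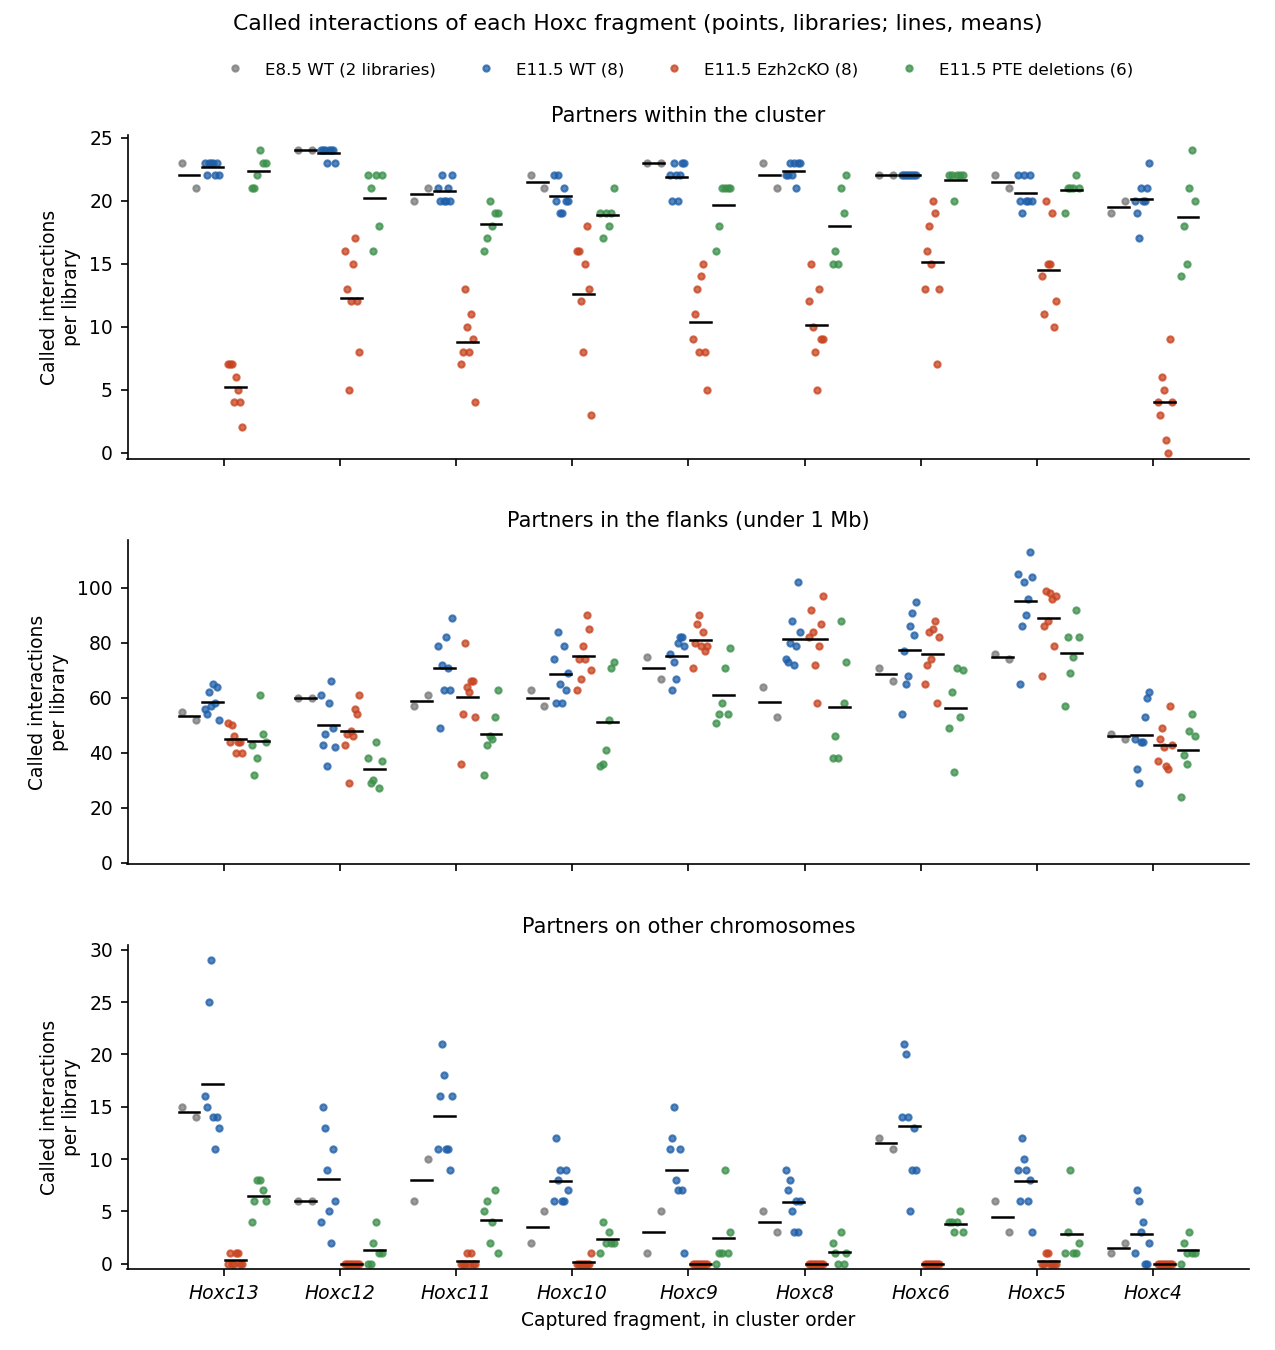
Called interactions of each captured Hoxc fragment per library (y axis, number of calls), in cluster order from Hoxc13 to Hoxc4, with partners inside the cluster, in the flanks under 1 Mb and on other chromosomes in separate panels. Points are libraries and lines are means of the 2 E8.5 WT, 8 E11.5 WT, 8 Ezh2cKO and 6 PTE deletion libraries. The Ezh2cKO points sit below all WT points for every fragment but Hoxc5 inside the cluster and every fragment but Hoxc4 on other chromosomes, while in the flanks the groups overlap for every fragment but Hoxc13. Such gaps were not counted over all baits.

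The change was tested on all cis partners under 100 kb, per bait, as calls relative to the library's total of such calls on a log2 scale (limma, two-sided, Benjamini-Hochberg adjustment over all baits tested). This class of calls was chosen after the data had been seen. All 9 Hoxc fragments passed the filter of a mean of 2 calls, also within the Ezh2cKO libraries alone, and all 9 were lower at an adjusted p under 0.05, where 4.87% of the 2630 baits tested were lower. Their median log2 change was -1.36, beside -0.02 over all baits. The changes were largest for Hoxc13, Hoxc11 and Hoxc9 and smallest for Hoxc5. Hoxc13 had 21 to 26 such calls in WT (median 23) and 3 to 10 in Ezh2cKO (median 6.5), a log2 change of -1.83 (SE 0.097, adjusted p 4.99e-09). Hoxc11 had 28 to 34 (median 30.5) and 4 to 16 (median 8.5), a log2 change of -1.80 (SE 0.14, adjusted p 2.38e-07). Hoxc9 had 31 to 37 (median 34.5) and 5 to 15 (median 11), a log2 change of -1.73 (SE 0.092, adjusted p 4.99e-09). For none of these did the groups overlap, but how many of all baits had such a gap was not counted.

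Hoxc8 (34 to 44 calls in WT, 5 to 25 in Ezh2cKO) changed by a log2 value of -1.44 (SE 0.17, adjusted p 4.02e-05), Hoxc10 (28 to 33, then 3 to 21) by -1.36 (SE 0.19, adjusted p 0.000266) and Hoxc12 (24 to 29, then 5 to 17) by -1.22 (SE 0.15, adjusted p 4.82e-05). Hoxc6 had 37 to 45 calls in WT and 8 to 32 in Ezh2cKO, a log2 change of -1.06 (SE 0.15, adjusted p 0.00029). At the anterior end the ranges overlapped. Hoxc4 had 19 to 42 calls (median 29) in WT and 9 to 29 (median 17) in Ezh2cKO, a log2 change of -0.84 (SE 0.12, adjusted p 0.000266). Hoxc5 had 30 to 42 (median 39.5) and 29 to 39 (median 33.5), a log2 change of -0.25 (SE 0.065, adjusted p 0.0272). The Hoxc5 call was lost without any one of 8 of the 16 libraries (adjusted p up to 0.0731): the first FNP, Md and PA2 and the second Mx of WT, and the second FNP and Mx and the first Md and PA2 of Ezh2cKO. The calls of the other 8 fragments held without each library in turn (adjusted p at most 0.00124). The effect did not differ between the 4 tissues by limma's F test for any of the 9 (adjusted p 0.448 to 0.999, where 0.152% of baits were called), which does not show that it was equal. The Hotair fragment, between Hoxc12 and Hoxc11, changed by a log2 value of -1.60 (SE 0.12, adjusted p 3.28e-07) in the same fit.

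Contacts among the 9 promoters themselves make up 36 pairs. In WT cells at E11.5, 32 of them were called in all 8 libraries, and the 2 E8.5 libraries each had all 36. In Ezh2cKO cells 9 pairs were called in all 8 libraries and 8 pairs in 0 or 1, so that 55.9% of pair-by-library combinations were called, beside 96.9% in WT. The share of pairs called in Ezh2cKO fell with distance. Of pairs 60 kb or more apart 29.2% were called in Ezh2cKO and 100% in WT, of pairs from 30 to 60 kb 55.2% and 100%, and of pairs under 30 kb 72.5% and 92.5%. Hoxc13 with Hoxc4, which spans 98.6 kb between fragment centres, went from 8 of 8 libraries to 1 of 8, Hoxc12 with Hoxc4 from 8 to 0, and Hoxc11 with Hoxc4 from 8 to 0. Distance did not set the order alone. Hoxc11 with Hoxc9, 23.3 kb apart, went from 7 of 8 to 0, while Hoxc11 with Hoxc6, 47.9 kb apart, was called in all 8 libraries of both genotypes.

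The Hoxc6 fragment stood out among them. Its pairs with the other 8 promoters were called in 92.2% of Ezh2cKO combinations, where Hoxc4 had 34.4%, Hoxc11 35.9% and Hoxc5, the next highest, 65.6%. It took part in 5 of the 9 pairs that were called in all 16 libraries. The other 4 of these were Hoxc13 with Hoxc12, Hoxc9 with Hoxc8, Hoxc9 with Hoxc5 and Hoxc8 with Hoxc5. The deposited interaction score, which sets a pair against the background of its own library, had a lower median in Ezh2cKO for 7 of the 9. For Hoxc11 with Hoxc6 it was 13.42 to 18.42 in WT (median 15.6) and 5 to 10.99 in Ezh2cKO (median 6.74), and for Hoxc10 with Hoxc6 it was 10.54 to 14.97 (median 12.2) and 5.56 to 8.86 (median 6.77). In those pairs every Ezh2cKO score lay below every WT score. For the neighbours Hoxc8 with Hoxc6 the scores were 6.86 to 11.65 (median 8.66) and 7.61 to 11.69 (median 9.47), which overlap. Scores are relative to each library and carry no test here.

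**Figure D2:**
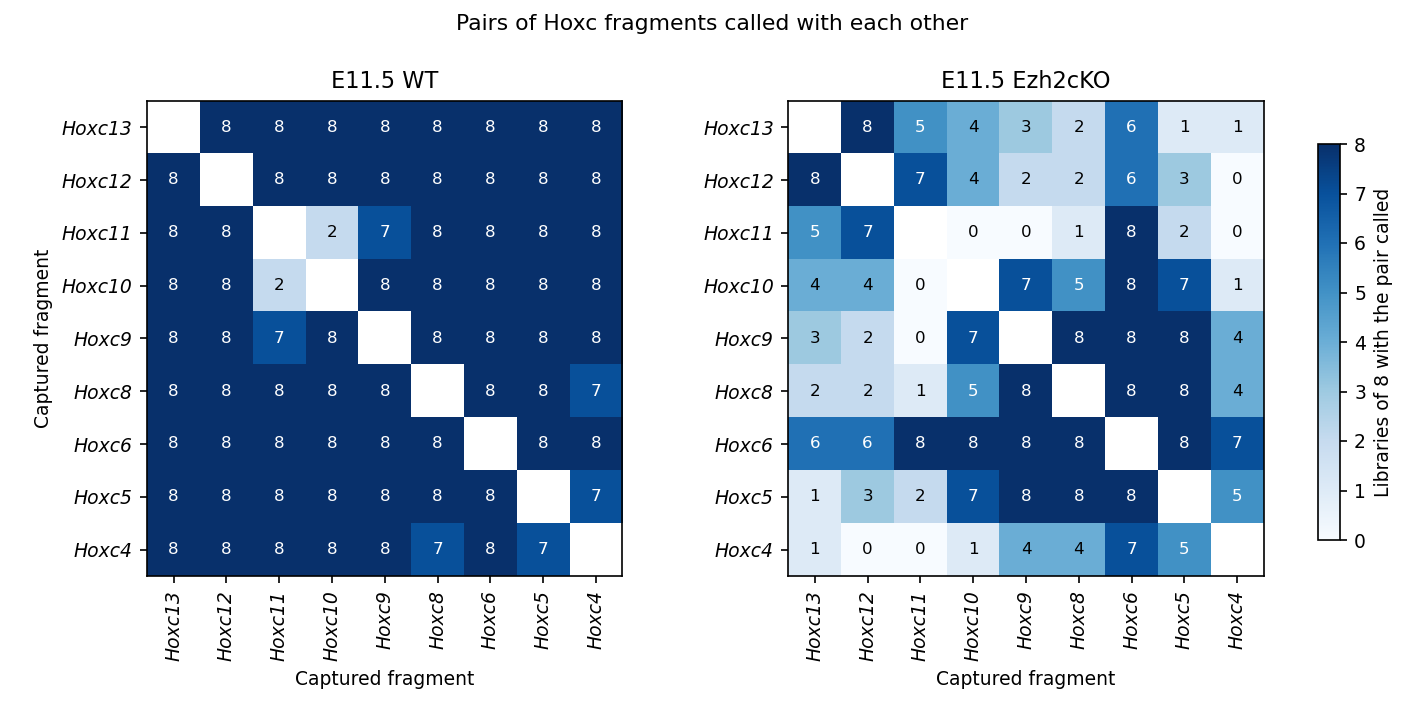
Number of libraries, of 8, in which each pair of captured Hoxc fragments was called (colour and digit), with the fragments in cluster order on both axes, for WT and Ezh2cKO cells at E11.5. In WT 32 of 36 pairs are called in all 8 libraries. In Ezh2cKO the pairs called in all 8 lie mostly between Hoxc11 and Hoxc5, many with Hoxc6, and the corner that joins Hoxc13, Hoxc12 and Hoxc11 to Hoxc4 is at 0 or 1 of 8.

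In the flanks the summed number of partners overlapped between the genotypes, while their distances differed. The flanks were taken as the sequence under 1 Mb on either side. There the 9 fragments together had 516 to 679 calls per WT library (median 629.5) and 516 to 637 per Ezh2cKO library (median 605), which overlap. Hoxc13 was the one fragment whose flank calls did not overlap, at 52 to 65 in WT and 40 to 51 in Ezh2cKO. Next to the cluster, however, the contacts were fewer. Within 30 kb past Hoxc13 there were 46 to 62 calls in WT and 0 to 3 in Ezh2cKO, and within 30 kb past Hoxc4 there were 46 to 53 and 14 to 23. From 30 to 100 kb past Hoxc4 there were 91 to 132 and 60 to 74, and from 100 to 150 kb on that side 138 to 147 and 118 to 130. In other zones the counts were higher in Ezh2cKO. From 100 to 150 kb past Hoxc13 the range was 6 to 25 in WT and 44 to 61 in Ezh2cKO, and from 150 to 200 kb on that side it was 61 to 99 and 103 to 126. From 150 to 200 kb past Hoxc4 the range was 36 to 46 in WT and 49 to 62 in Ezh2cKO, and from 200 to 300 kb it was 50 to 75 and 84 to 115. None of these 8 zones overlapped between the genotypes, but how often such gaps occur around other promoters was not counted. The zone counts were not scaled to the library totals. These were 168670 to 176164 calls in E11.5 WT and 164248 to 190343 in Ezh2cKO. The ranges overlapped from 200 to 300 kb past Hoxc13, at 34 to 47 in WT and 35 to 51 in Ezh2cKO, from 30 to 100 kb past Hoxc13, at 0 to 1 and 0 to 4, and from 300 to 500 kb past Hoxc4, at 5 to 11 and 4 to 8. Cis partners at 1 Mb or more were few, with 3 to 14 calls per WT library (median 8) and 0 to 3 per Ezh2cKO library (median 2). Sums over the members have no test.

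Some contacts were called in nearly all libraries of both genotypes, which does not show that their strength above the score limit was the same. Past Hoxc4, near Smug1, which encodes a uracil-DNA glycosylase of base excision repair, the fragments chr15:103170893-103173407 and chr15:103175876-103179485 were each joined to all 9 Hoxc promoters in all 8 libraries of both genotypes, 72 of 72 combinations. The Smug1 fragment beside them, chr15:103165708-103170892, had 72 of 72 in WT and 69 of 72 in Ezh2cKO. Past Hoxc13 no Hoxc promoter was joined to anything from 300 to 500 kb in either genotype. Of the 23 protein-coding genes within 500 kb of the cluster, 13 had no called contact of a Hoxc promoter with a fragment at or near either of their ends in WT, Ezh2cKO, E8.5 or deletion libraries.

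**Figure D3:**
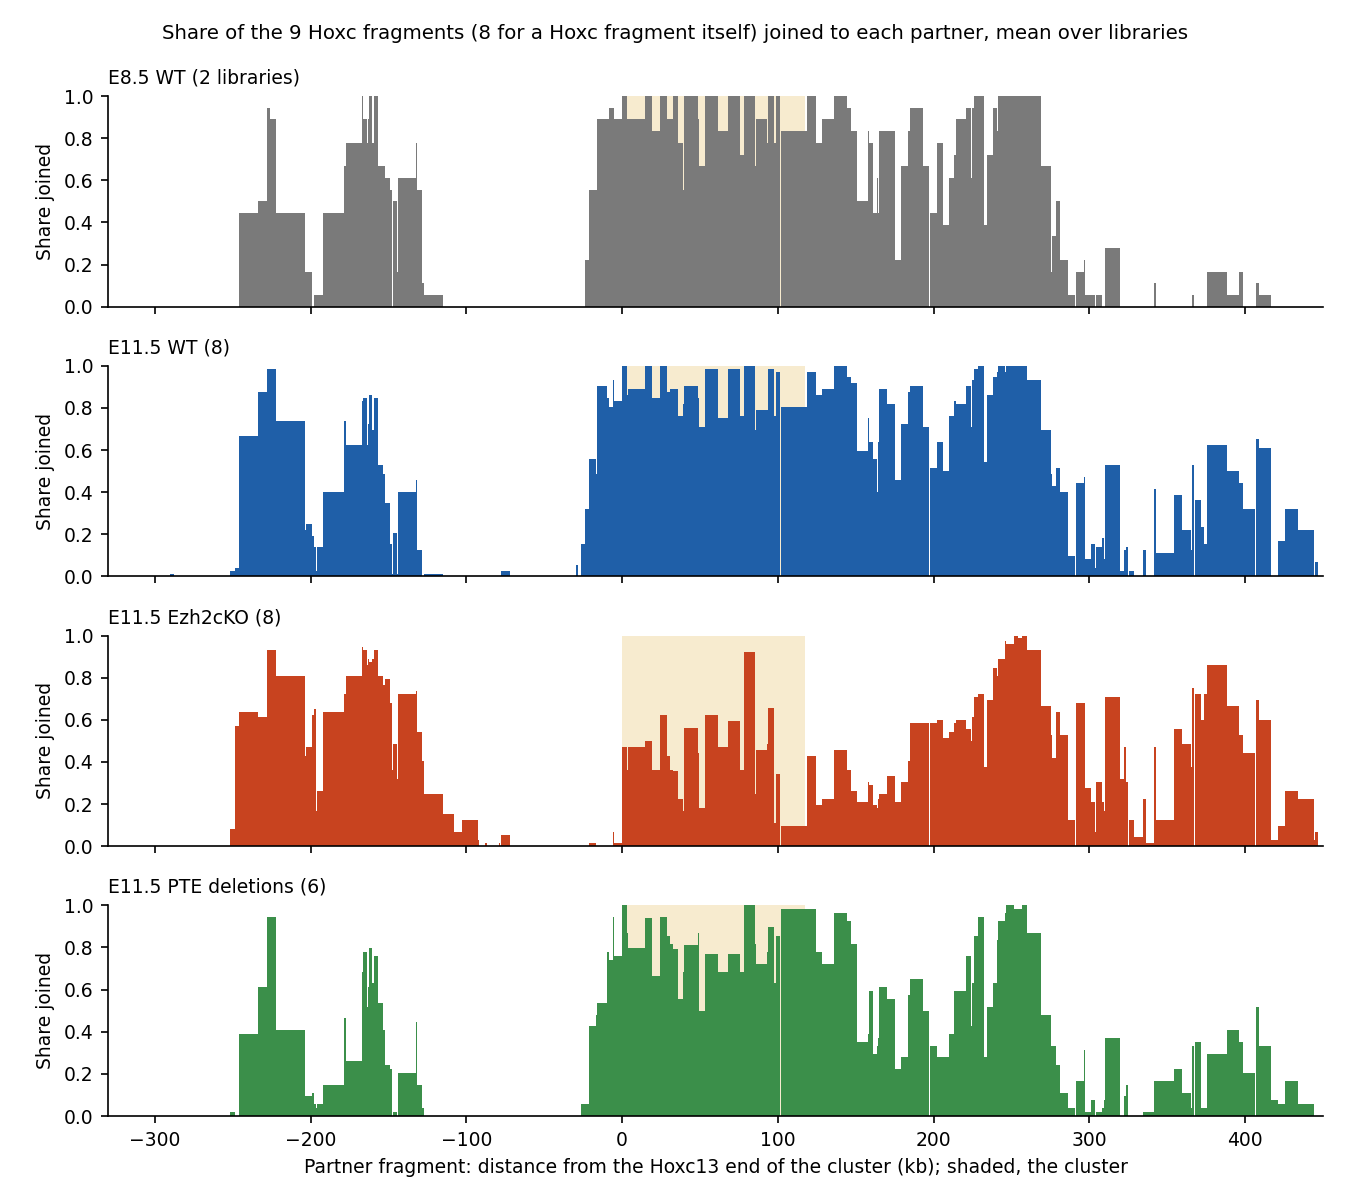
Share of the 9 Hoxc fragments (8 where the partner is itself one of them) joined to each HindIII fragment, as the mean over libraries (y axis), against the distance of the partner from the Hoxc13 end of the cluster in kb (x axis), for E8.5 WT, E11.5 WT, Ezh2cKO and deletion libraries. The shaded block is the cluster. In WT it is nearly full to both edges, in Ezh2cKO it is thinned and the 30 kb past Hoxc13 is nearly empty, and the block 200 to 300 kb past Hoxc4 is tall at E11.5 and low at E8.5.

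The neighbouring genes met by the longer contacts could be named. Calcoco1, a coactivator and autophagy receptor 197 kb past Hoxc13, was joined to Hoxc promoters by 7.88 pairs per WT library and 13.1 per Ezh2cKO library, and Atp5g2, a subunit of mitochondrial ATP synthase 248 kb past Hoxc13, by 0.375 and 5.13. On the Hoxc4 side, Cbx5, which encodes the heterochromatin protein HP1 alpha, had 6.5 and 8.88 pairs per library, its neighbour Hnrnpa1, an RNA-binding protein of splicing, 0.5 and 4, and Copz1, a coat protein of Golgi vesicles, 6.63 and 8.88. Smug1 had 13.9 and 12.0. In the fits over all baits, which counted the neighbours' own cis partners wherever they lay, the Calcoco1 bait rose by a log2 value of 2.00 (SE 0.25, limma adjusted p 9.44e-06) and the bait shared by Cbx5 and Hnrnpa1 by 1.49 (SE 0.31, adjusted p 0.00304). None of the other 10 neighbours with a tested bait was called. Over all 10344 baits tested, 557 were higher and 558 lower. The neighbours' levels within each genotype were not checked against the filter, so these calls are a description only.

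The same calls were also counted pair by pair. An interaction was counted as lost where 7 or more of the 8 WT libraries called it and no more than 1 Ezh2cKO library did, and as gained in the opposite case. Of 737 Hoxc interactions that reached 7 libraries in WT or in Ezh2cKO, 157 were lost, or 21.3%, where 2.24% of the 70834 such interactions of all promoters were lost. Among cis interactions under 500 kb of all promoters the share was 1.4%. Gains were 28 of 737, or 3.80%, beside 1.62% of all. The share of all covers every distance and trans, while the 28 gains lay in cis at 59.5 to 365 kb. These shares of gains are thus not matched for distance. At the edge of the rule, 127 of the lost pairs were called in no Ezh2cKO library and 30 in 1, and a further 24 pairs with at least 7 WT calls were called in exactly 2 and so were not counted. No test was made of these shares. Of the 157 lost pairs 54 lay inside the cluster, 62 past Hoxc4, 40 past Hoxc13 and 1 on another chromosome, and their median length was 91.4 kb. Of these, 135 were also called in both E8.5 libraries.

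The ends of the cluster lost the largest shares of their stable pairs. Hoxc13 lost 38 of 81 (46.9%) and Hoxc4 lost 21 of 56 (37.5%), against 9 of 89 (10.1%) for Hoxc6 and 9 of 110 (8.18%) for Hoxc5. Hoxc13 lost 24 pairs past Hoxc4 and 14 inside the cluster. Its strongest lost partner was chr15:103037829-103043967, the fragment just past the end of Hoxc4, with a median score of 19.8, which was called in 8 of 8 WT and 1 of 8 Ezh2cKO libraries. The pair of Hoxc13 with the uncaptured fragment that holds the Hoxc4 transcript's promoter printed above went from 8 to 0, and that of Hoxc13 with the captured Hoxc4 fragment from 8 to 1. The fragment just past Hoxc4 was lost in the same way by Hoxc12 (8 to 1), Hoxc11 (8 to 0) and Hoxc10 (8 to 1). From the other end, Hoxc6 and Hoxc5 lost chr15:102913416-102914419, just past Hoxc13 (8 to 0 each). Hoxc8 lost 6 pairs past Hoxc13, 6 inside the cluster, 1 on another chromosome and none past Hoxc4.

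The 28 gained pairs were longer, with a median length of 194 kb and a range of 59.5 to 365 kb, and all lay outside the cluster: 20 past Hoxc13 and 8 past Hoxc4. The one with the highest score joined Hoxc9 to chr15:103292820-103294628 inside Copz1, in 1 of 8 WT and 7 of 8 Ezh2cKO libraries. Hoxc13 gained chr15:102792140-102804153 (0 to 8 libraries), chr15:102790795-102792139 (0 to 8) and chr15:102787596-102790794 (1 to 8). Hoxc12 gained the captured Calcoco1 fragment chr15:102721792-102722704 (1 to 7), and Hoxc11 the fragment next to it (0 to 7). Of the 28, 11 were called in at least 1 E8.5 library and 5 in both. Counting partners in the same 10 kb window as one left 63 lost and 9 gained.

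Over all cis partners the change was smaller. The Hoxc fragments had a median log2 change of -0.24 in all cis calls, beside 0.01 over all baits, and 4 of 9 were lower where 5.39% of 10344 baits were lower (limma). Hoxc13 had 77 to 89 cis calls in WT (median 82) and 43 to 58 in Ezh2cKO (median 50), without overlap, a log2 change of -0.75 (SE 0.080, adjusted p 1.25e-06). Hoxc4 had 46 to 85 (median 65) and 34 to 66 (median 47.5), a log2 change of -0.54 (SE 0.10, adjusted p 0.00144). Hoxc11 had 70 to 115 (median 94) and 43 to 94 (median 72), a log2 change of -0.47 (SE 0.10, adjusted p 0.00415). Only Hoxc13 showed no overlap between the groups, and the number of all baits with such a gap was not counted. Hoxc12 had 58 to 90 (median 72) and 34 to 73 (median 60.5), a log2 change of -0.35 (SE 0.11, adjusted p 0.0436), and its call was lost without any one of 13 of the 16 libraries (adjusted p up to 0.109), all but the second FNP and Mx libraries of WT and the second Mx library of Ezh2cKO. The other 5 did not pass the threshold (adjusted p 0.104 to 0.625), with Hoxc10 at -0.08 (SE 0.085).

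For partners at 100 kb or more, Hoxc13 was lower at 40 to 50 calls in Ezh2cKO (median 43) against 55 to 65 in WT (median 60.5), a log2 change of -0.48 (SE 0.089, adjusted p 0.00123). Hoxc9 was higher at 71 to 88 (median 79) against 52 to 72 (median 65.5), a log2 change of 0.30 (SE 0.083, adjusted p 0.0264), and Hoxc4 lower at 25 to 37 (median 29.5) against 27 to 46 (median 38.5), a log2 change of -0.36 (SE 0.11, adjusted p 0.0381). Over all 15818 baits 3.44% were higher and 3.52% lower in this class. The Hoxc9 call was lost without any one of 7 libraries, the second FNP, Mx and PA2 and the first Md of WT and the second Mx and PA2 and the first Md of Ezh2cKO (adjusted p up to 0.0692), and with library medians set equal (adjusted p 0.136). That scaling also moved the split of all called baits from 544 higher and 557 lower to 332 and 855. The Hoxc4 call was lost without any one of 12 libraries, all but the second FNP and the first Mx and Md libraries of WT and the first PA2 library of Ezh2cKO (adjusted p up to 0.104).

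**Figure D4:**
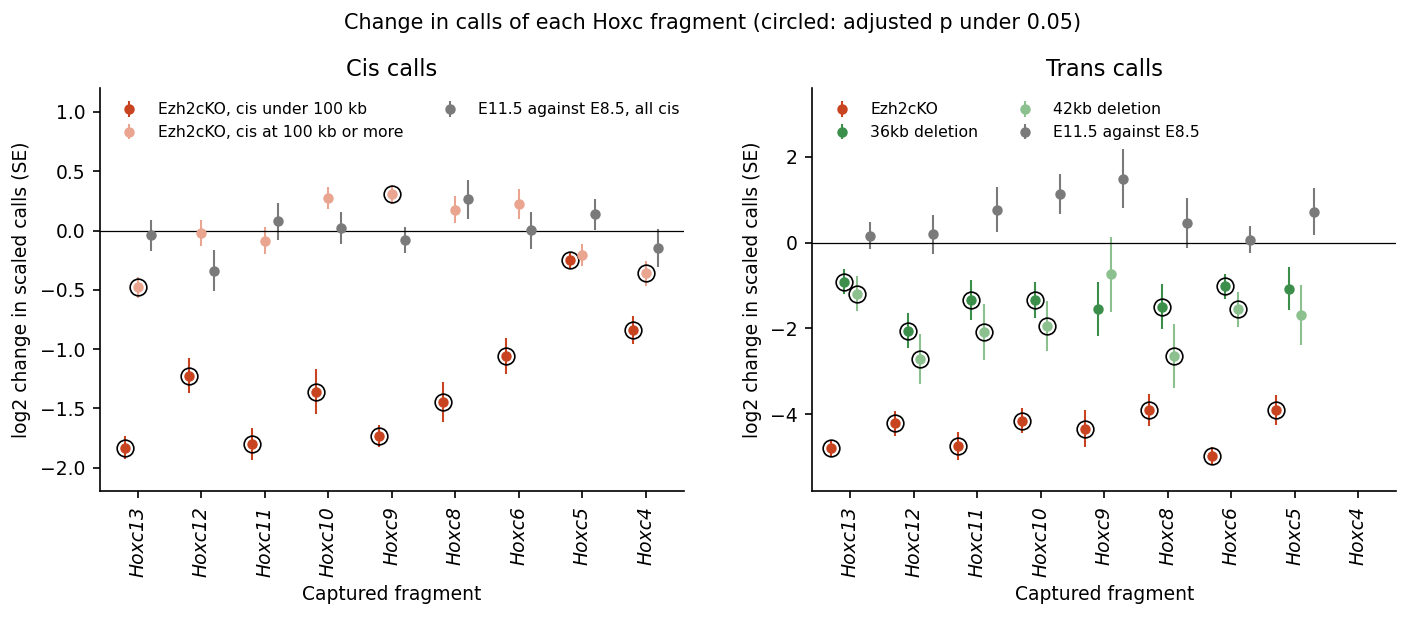
Log2 change in calls relative to the library total of the same class (y axis, point with SE from limma) for each captured Hoxc fragment in cluster order. The left panel has cis calls, in Ezh2cKO against WT under and over 100 kb and in E11.5 against E8.5 over all distances; the right panel has trans calls in Ezh2cKO, both deletions and E11.5 against E8.5. Circled points have an adjusted p under 0.05: all 9 cis changes under 100 kb in Ezh2cKO are circled and none of the stage changes is. Hoxc4 was not tested in trans.

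Contacts with other chromosomes were frequent for the Hoxc promoters in WT cells. Together they made 81 and 111 trans calls in the FNP libraries, 128 and 105 in Mx, 64 and 62 in Md and 74 and 63 in PA2, which was 1.13% to 2.24% of the trans calls of all 22203 baits in the same libraries. Hoxc13 had 11 to 29 per library (median 14.5), Hoxc11 9 to 21 (median 13.5) and Hoxc6 5 to 21 (median 13.5), the most of the 9. Hoxc4 had 0 to 7 (median 2.5), the fewest, with no call in 2 libraries. The partners were mostly other Hox clusters. Of 688 trans calls in the 8 WT libraries at E11.5, 397 (57.7%) were with the Hoxb cluster on chromosome 11, 144 (20.9%) with the Hoxa cluster on chromosome 6, 18 (2.62%) with the Hoxd cluster on chromosome 2 and 129 (18.8%) elsewhere. Of the calls elsewhere 38 (5.52% of all) were at fragments of developmental regulators outside the Hox clusters, such as a captured fragment each of Zic2 (6 calls), Nkx2-3 (6) and Uncx (5), all homeobox or zinc finger transcription factors.

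The trans contacts were spread over many pairs rather than fixed to few. Of 442 distinct trans pairs in WT at E11.5, 295 were called in 1 of 8 libraries and 24 in 4 or more. The most recurrent was Hoxc8 with the fragment of Hoxb7 and Hoxb8, chr11:96281906-96290755, which begins beside the Hoxb8 promoter printed above: it was called in 7 of 8 WT libraries, with a median score of 11.6, and in no Ezh2cKO, E8.5 or deletion library. Hoxb8 is the paralogue of Hoxc8. Several partner fragments met each of the 9 Hoxc promoters in at least 1 of the 24 libraries. The Hoxb4 fragment chr11:96321828-96327276 had 35 calls with them in the 8 WT libraries, the Hoxb7 and Hoxb8 fragment 33, a Hoxb2 fragment 27, the Hoxb8 fragment chr11:96278714-96281905 23 and the Hoxa11 fragment 16. The fragments with the microRNA genes shown above were among the partners, Mir10a with 19 calls to 8 of the Hoxc fragments, Mir196a-1 with 15 to 6 and Mir196b with 5 to 4. Of these the Hoxc9 fragment, which holds Mir196a-2, had 2 with Mir196a-1 and 2 with Mir196b.

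In Ezh2cKO cells nearly all of these calls were missing. The 9 fragments together made 0 to 2 trans calls per library, 8 over all 8 libraries, and none of them was with a Hox cluster. Hoxc12, Hoxc9, Hoxc8, Hoxc6 and Hoxc4 had no trans call in any of the 8 libraries, where WT had 65, 72, 47, 105 and 23 over its 8. Hoxc13 went from 137 to 3, Hoxc11 from 113 to 2, Hoxc5 from 63 to 2 and Hoxc10 from 63 to 1. For 8 of the 9, all but Hoxc4, every Ezh2cKO library lay below every WT library. How many of all baits had such a gap was not counted, so this number is a description only. The trans calls of all baits went the other way: every Ezh2cKO library had more (5899 to 7927) than any WT library at E11.5 (4983 to 5726). In the limma fit the same 8 fragments were tested, through a mean of at least 2 calls that they reached only outside Ezh2cKO, so they had to differ there and their number supports nothing. Each had a log2 change of -3.90 to -4.97 (adjusted p 3.53e-13 to 9.91e-08), which depends on the 0.5 added to counts of 0 and is no measure of size. Of the 151 baits tested 53% were lower and 12.6% higher, with a median of -0.56, and with library medians set equal the split of called baits was 39 higher and 36 lower in place of 19 and 80.

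The other Hox promoters, by a list of 32 Hox and Evx genes outside Hoxc on 36 captured fragments, were counted in the same classes. In trans 11 of 36 were tested and 11 were lower, again tested through levels outside Ezh2cKO, so that their number supports nothing either, with the Hoxb7 and Hoxb8 fragment at -5.19 (SE 0.24, adjusted p 1.66e-12) and the Hoxb8 fragment at -4.97 (SE 0.17, adjusted p 7.76e-14). In cis under 100 kb 15 were tested, 8 were lower and none higher, where 4.87% of 2630 baits were lower. Whether these 15 reached the filter within the Ezh2cKO libraries alone was not checked, so their number is a description only. Their median log2 change was -1.14, and among the lower was the Hoxb8 fragment at -1.24 (SE 0.21, adjusted p 0.00125). Over all cis distances they split in direction, 6 higher and 9 lower of 36, with Hoxb9 at 1.45 (SE 0.16, adjusted p 1.68e-06) and Hoxb13 at -3.85 (SE 0.33, adjusted p 3.62e-08), while of the Hoxc fragments 4 were lower and none higher. The Hotair fragment went from 153 trans calls in the WT libraries to 1. Of 180 tested fragments of developmental regulators outside the Hox clusters 5 were higher and 75 lower in cis. Lower cis calls were thus not particular to the Hoxc fragments. Of fragments of genes of the Polycomb complexes, 14 were tested in cis, 3 were higher and none lower. Over all 10344 baits tested in cis 5.39% were lower and 557 were higher. The levels of the fragments outside Hoxc within each genotype were not checked against the cis filter. Their counts over all cis distances, and the size of the Hoxb13 change, are thus a description only.

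**Figure D5:**
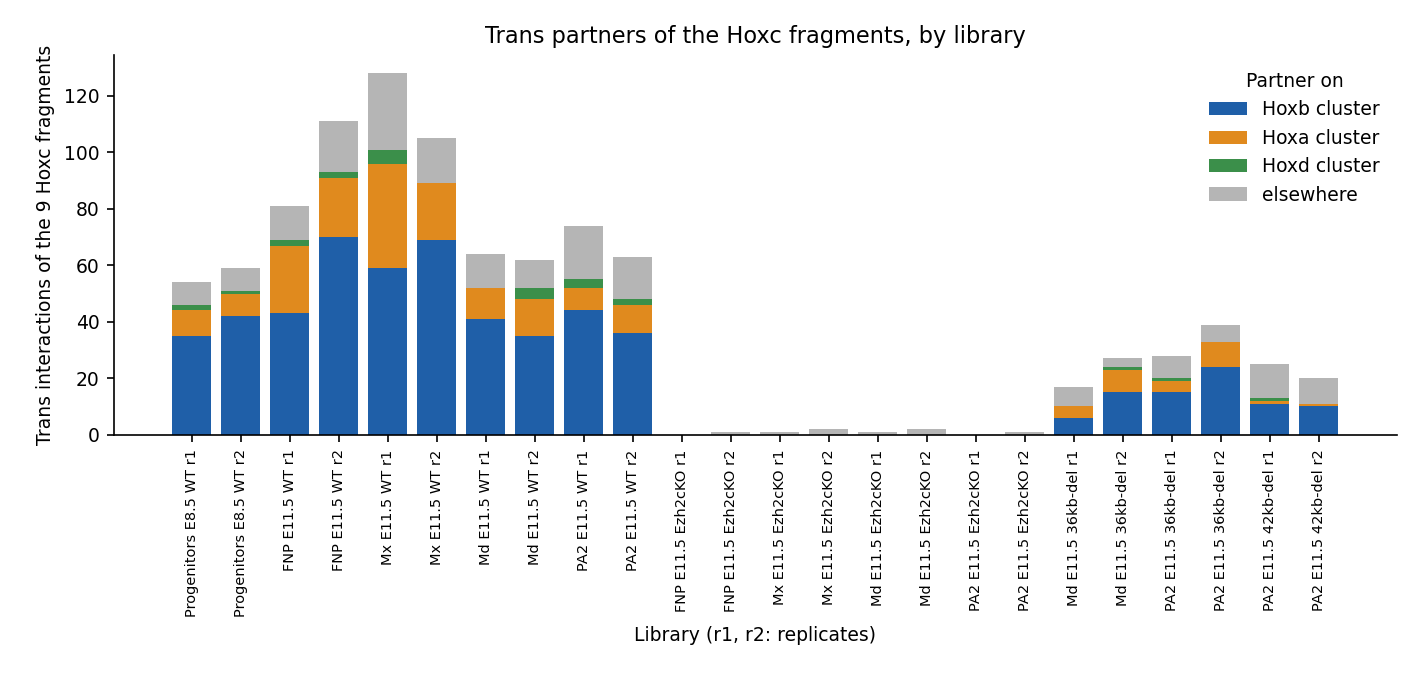
Trans interactions of the 9 Hoxc fragments together in each of the 24 libraries (stacked bars, number of calls), coloured by the chromosome region of the partner: Hoxb, Hoxa or Hoxd cluster or elsewhere. WT bars at E11.5 run from 62 to 128, E8.5 bars are 54 and 59, deletion bars run from 17 to 39, and the Ezh2cKO bars are 0 to 2 with no Hox partner.

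Between E8.5 progenitors and the E11.5 tissues the contacts inside the cluster were much alike. The 2 E8.5 libraries had 162 and 158 distinct interactions inside the cluster, within the E11.5 WT range of 154 to 163, and each fragment had 19 to 24 partners there. None of the 9 fragments was called in cis (limma adjusted p 0.156 to 0.998, log2 changes of -0.34 to 0.26), where 28.9% of all baits were called and 4054 of 10344 had an unadjusted p under 0.05. None was called among partners at 100 kb or more (adjusted p at least 0.0865), where 19.7% of baits were, nor in trans for the 8 tested (adjusted p 0.164 to 0.948), where 11.3% were. With library medians set equal the called baits at 100 kb or more split into 2382 higher and 810 lower, in place of 1936 and 1173, and with trans calls scaled to all calls they split into 10 and 7, in place of 12 and 5. Such p-values do not show that the stages are alike. With 7 as the lowest score, Hoxc12 was lower at E11.5 in cis (log2 change -0.70, adjusted p 0.0188) and Hoxc11 higher in trans (1.60, adjusted p 0.0458).

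Differences by stage were seen in the counts of both flanks, none of them tested. Of 736 Hoxc interactions stable at one of the stages, 40 were called in 7 or 8 WT libraries at E11.5 and in neither at E8.5, or 5.43% where 11.4% of all were, and 19 were called in both at E8.5 and at most 1 at E11.5, or 2.58% where 18.8% were. Of the 40, 32 lay past Hoxc4, and the median length was 271 kb. Hoxc8 and Hoxc5 took part in 10 each. Of the partners, 5 were at or near an end of Copz1, 3 at a fragment shared by Gpr84 and Zfp385a and 1 at that of Cbx5 and Hnrnpa1. Most of the others held no end of a gene, and some of those lay inside Copz1. From 200 to 300 kb past Hoxc4 there were 6 and 10 calls in the E8.5 libraries, 50 to 75 in the E11.5 WT libraries and 84 to 115 in Ezh2cKO, with no overlap between any of the 3 sets. On the other side, from 100 to 150 kb past Hoxc13, the order was different: 39 in each E8.5 library, 6 to 25 in E11.5 WT and 44 to 61 in Ezh2cKO. From 200 to 300 kb past Hoxc13 there were 28 and 33 at E8.5 and 34 to 47 in E11.5 WT. Of the 19 pairs of the E8.5 kind 10 lay past Hoxc13 and 7 in trans. In trans as a whole the E8.5 libraries made 54 and 59 calls, just below the E11.5 WT minimum of 62, and 77 of their 113 calls were with Hoxb.

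The Hoxa2PTE deletions are named for Hoxa2, on another chromosome than Hoxc. In the 4 libraries with the 36 kb deletion and the 2 with the 42 kb deletion, each Hoxc fragment kept most of its partners in the cluster: Hoxc13 had 21 to 24 and Hoxc6 20 to 22, and Hoxc12, with 16 to 22, was the one fragment wholly below the E11.5 WT range. Distinct interactions inside the cluster numbered 133 and 141 in Md and 136 and 158 in the first and second PA2 libraries with the 36 kb deletion, and 155 and 159 in PA2 with the 42 kb deletion, against 157 to 163 in WT Md and PA2. These libraries also had fewer calls in all, 142284 to 158363 against 169967 to 173381 in WT Md and PA2, and the part of this in the difference was not tested. In the flanks under 1 Mb the 6 deletion libraries had 367 to 566 calls, all below the 635 to 679 of WT Md and PA2. The genotype field of the second PA2 library with the 36 kb deletion holds the title of the first, while its own title and description name this deletion and the second replicate. That library had 555 calls in the flanks and its replicate 389, and the counts without it are given below. In the limma fit for all cis calls 2 of 9 fragments were lower with the 36 kb deletion, where 5.65% of baits were: Hoxc11 at a log2 change of -0.52 (SE 0.14, adjusted p 0.023) and Hoxc8 at -0.50 (SE 0.15, adjusted p 0.0366). The Hoxc11 call was lost without the first Md or second PA2 library of WT or the first Md or second PA2 library of the deletion (adjusted p up to 0.115), and the Hoxc8 call without any library but the second Md and second PA2 of the deletion (adjusted p up to 0.217). Without the second PA2 deletion library 2 fragments were called, and with 7 as the lowest score 6 were. Among partners at 100 kb or more, a class chosen for this comparison after the data had been seen, 3 of 9 were lower with the 36 kb deletion, where 2.95% of 15818 baits were. Hoxc11 had 54 to 81 such calls in WT Md and PA2 and 25 to 39 with the deletion, a log2 change of -0.79 (SE 0.16, adjusted p 0.00457). Hoxc10 had 51 to 73 and 29 to 45, a log2 change of -0.62 (SE 0.13, adjusted p 0.00806), and Hoxc6 62 to 74 and 22 to 54, a log2 change of -0.67 (SE 0.18, adjusted p 0.0279). None of the 3 overlapped, but how many of all baits had such a gap was not counted. The Hoxc11 call held without each library in turn (adjusted p at most 0.0365). The Hoxc10 call was lost without the second Md WT or the first PA2 deletion library (adjusted p up to 0.0557), and the Hoxc6 call without any library but the first PA2 of WT and the second Md and PA2 of the deletion (adjusted p up to 0.173). Without the second PA2 deletion library 5 fragments were called and without the second Md WT or the first PA2 deletion library 1, and with library medians set equal 8 were, where the called baits split into 304 higher and 803 lower in place of 467 and 467. With the 42 kb deletion 0 of 9 were called (adjusted p 0.44 to 0.933), where 1.84% of 10344 baits were called and 1786 had an unadjusted p under 0.05. With library medians set equal, the called baits split into 423 higher and 676 lower, in place of 565 and 584, for the 36 kb deletion, and into 61 and 129, in place of 85 and 105, for the 42 kb deletion.

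In trans the deletion libraries were lower than WT. With the 36 kb deletion the 9 fragments made 17 and 27 trans calls in Md and 28 and 39 in PA2, and with the 42 kb deletion 25 and 20 in PA2, against 64 and 62 in WT Md and 74 and 63 in WT PA2, with no overlap. As a share of all trans calls in the library they were 0.325% to 0.729%, also below every WT library. The partners with Hoxb went from 35 to 44 in WT Md and PA2 to 6 to 24, and those with Hoxa from 8 to 13 to 1 to 9. Hoxc13 had 11 to 14 trans calls in the WT Md and PA2 libraries and 4 to 8 in the 6 deletion libraries, and Hoxc12 2 to 11 and 0 to 4. In the limma fit, chosen after the data had been seen, 6 of 8 were lower with the 36 kb deletion, where 29.8% of 151 baits were lower and the median of all was -0.29, and 6 of 8 with the 42 kb deletion, where 34.4% were and the median was -0.80. Of these, Hoxc12 and Hoxc8 passed the filter of a mean of 2 calls only through libraries without a deletion, so their part in these counts supports nothing. Hoxc12 had 0, 0, 2 and 4 trans calls with the 36 kb deletion and 1 and 1 with the 42 kb deletion. Hoxc8 had 2, 1, 0 and 3, then 0 and 1. Hoxc12 changed most in both, by -2.05 (SE 0.41, adjusted p 0.000903) and -2.72 (SE 0.58, adjusted p 0.00119), while Hoxc9 and Hoxc5 were called in neither. Both comparisons used the same WT PA2 libraries.

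These trans counts rested on the scaling and on single libraries. With library medians set equal, 1 of 8 fragments was called for each deletion. It was Hoxc12 in both, which passed the filter only through libraries without a deletion, so this call supports nothing. With that scaling the called baits split into 15 higher and 26 lower for the 36 kb deletion, in place of 11 and 45, and into 33 and 23 for the 42 kb deletion, in place of 6 and 52. With 7 as the lowest score 0 and 1 were called. Leaving out the second Md WT or the first Md deletion library left 2 called for the 36 kb deletion, leaving out the first PA2 deletion library left 3, and the others left 4 to 7. For the 42 kb deletion leaving out either WT library or the first deletion library left 3 called and leaving out the second deletion library left 4. Of the other Hox and Evx fragments 10 of 11 were lower in trans with the 36 kb deletion and 6 of 11 with the 42 kb deletion, where 29.8% and 34.4% of 151 baits were. Their levels within the deletion libraries were not checked against the filter, so these numbers support nothing. Whether sorting differed between these embryos and WT, the number of calls per library and batch cannot be told apart from the alleles.

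Among the WT tissues, the FNP and Mx libraries had 516 to 624 calls in the flanks under 1 Mb and the Md and PA2 libraries 635 to 679, without overlap. PA2 against the mean of FNP, Mx and Md gave 0 of 9 fragments called in cis (limma adjusted p 0.314 to 0.980), where 0.251% of 10344 baits were called and 997 had an unadjusted p under 0.05. In trans the PA2 and Md values (62 to 74) lay below those of FNP and Mx (81 to 128), and the 8 fragments tested for PA2 against the other 3 gave none called (adjusted p 0.483 to 0.998, where 1.32% of baits were and 11 had an unadjusted p under 0.05). The difference between FNP with Mx and Md with PA2 was not tested. The response to Ezh2cKO in all cis calls did not differ by tissue for any of the 9 by the F test (adjusted p 0.870 to 0.989, where 0.00967% of baits were called). Markers of cell types were read only as promoters, since RNA was not measured. In cis calls with Ezh2cKO 5.39% of all 10344 baits were lower and 557 were higher. For neural crest markers 1 of 4 tested fragments was lower, for facial mesenchyme 0 of 6, for neural 1 of 3 and for blood 1 of 4. For endothelial, epithelial and muscle markers it was 0 of 2 each, and no marker fragment was higher. The part of these markers in the Hoxc changes was not tested, and their levels within each genotype were not checked against the filter.

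As a description, the promoters whose cis calls ran most like the mean of the 9 Hoxc fragments over the 12 group means were Kremen2 (Pearson r = 0.887), a receptor of the Wnt antagonist Dickkopf, and Ercc1 (0.886), a subunit of a DNA repair nuclease. Sox17 (0.862) and Lhx5 (0.859), transcription factors of endoderm and of the forebrain, were also among the first 10. The group means share the library totals they were scaled to. The members were not uniform among themselves on the same measure: Hoxc11 ran with Hoxc5 (r = 0.825) and Hoxc9 (0.802), while Hoxc10 with Hoxc4 had r = 0.117.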

How the data were processed

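The deposited tables list, per library, pairs of HindIII fragments with an interaction score of 5 or more. CHiCAGO, which models the background of capture Hi-C, is named only in the names of the deposited tables, and the build (GRCm38, mm10) is per the submitters' processing notes. Aligner and versions: not given in the sources used here. Scores, as deposited by the authors, are relative to each library, so they were used to choose and rank calls and not tested. No depth or count of reads was at hand, so no counting interval is given, and 2 libraries per group limit the precision.

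Fragments were named from RefSeq gene ends within 1 kb. Calls per bait were taken as log2((calls + 0.5) / library total of the same class) and fitted over all baits by limma 3.58.1 (R 4.3.3; a mean for each of 12 groups, trended empirical Bayes), with a mean of at least 5 cis or 2 near, far or trans calls, a Benjamini-Hochberg threshold of 0.05 and two-sided tests. Near means under 100 kb between fragment centres. The fit was tested on simulated data. Counts used Python 3.11.15 and pandas 2.3.3. Named were the members, the lost, gained and stage-dependent partners of highest median score, the partners called in most libraries, protein-coding neighbours within 500 kb, up to 6 other Hox fragments and the 10 baits of most similar pattern. The members, gene lists and tests were chosen with earlier results of these data known. Alternatives were the lowest score, the filter, the scaling, the groups fitted, the distance limit, the pair rule, a replicate block and each library left out in turn.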

Additional observations from a re-analysis of the deposited data

How the results depend on the processing

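Counts below are of all baits called and, where named, of Hoxc fragments called. With 7 as the lowest score, Ezh2cKO gave 567 baits in cis (1115 at a score of 5), 107 under 100 kb (244) and 55 in trans (99), and its effect by tissue 2 (1). The stage gave 1543 in cis (2991) with 1 Hoxc fragment (0), 1971 at 100 kb or more (3109) with 1 Hoxc fragment (0), and 1 Hoxc fragment in trans (0). The 36 kb deletion gave 524 in cis (1149) with 6 Hoxc fragments (2), 5 Hoxc fragments at 100 kb or more (3) and 27 in trans (56) with 0 Hoxc fragments (6), and the 42 kb deletion 108 in cis (190) and 34 in trans (58) with 1 Hoxc fragment (6). Hoxc6 in trans with the 36 kb deletion turned from -1.02 to 0.15 (adjusted p 0.774) at that score. Interactions of the E8.5 kind were then 32 (19) and of the E11.5 kind 24 (40). The mean calls inside the cluster were then 133.1 in WT (159.6) and 26.6 in Ezh2cKO (72.9), in the flanks 385.8 (624) and 402 (598.1), at 1 Mb or more 3.63 (7.88) and 0.25 (1.75), and in trans 50.5 in WT (86).

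With a filter at a mean of 10 calls, Ezh2cKO gave 726 at 100 kb or more (1101), 62 under 100 kb and 32 in trans, the stage 1873 at 100 kb or more and 7 in trans (17), PA2 in cis 10 (26), the 36 kb deletion 611 at 100 kb or more (934), and the deletions 17 and 15 in trans, with 0 Hoxc fragments in trans for Ezh2cKO (8) and both deletions, since fewer baits pass. With a filter at a mean of 1 call the trans counts were 220 for Ezh2cKO, 57 for the stage and 169 and 219 for the deletions. With only the groups compared in the fit, the 36 kb deletion gave 694 in cis with 1 Hoxc fragment, 521 at 100 kb or more and 37 in trans, the 42 kb deletion 81 in cis and PA2 13. With 1 Mb as the distance limit, Ezh2cKO gave 513 with 0 Hoxc fragments (3) the stage 1249 and the 36 kb deletion 200 with 0 Hoxc fragments (3). With medians set equal, 1 Hoxc fragment was called for the stage at 100 kb or more and for each deletion in trans, and 8 for the 36 kb deletion at 100 kb or more. With partners in the same 10 kb window taken as 1, there were 63 lost interactions (157), 9 gained (28) and 6 of the E8.5 kind. A rule of at least 6 and at most 2 of 8 gave 65 gained. Keeping only fragments that hold a gene end gave a WT mean of 147.3 inside the cluster and an Ezh2cKO mean of 555.4 in the flanks. Except where a value shows it, the cause was not tested.

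Without each library in turn, calls ran from 805 to 984 for Ezh2cKO in cis with 3 to 5 Hoxc fragments, 159 to 218 under 100 kb, and 1 to 4 Hoxc fragments at 100 kb or more. For the stage they ran from 1668 to 2860 in cis, 1514 to 3029 at 100 kb or more and 4 to 17 in trans. For the 36 kb deletion they ran from 594 to 1300 in cis with 0 to 2 Hoxc fragments, 448 to 1170 at 100 kb or more with 1 to 5, and 36 to 56 in trans with 2 to 7, for the 42 kb deletion from 29 to 122 in cis and 37 to 55 in trans with 3 to 4, for PA2 from 9 to 21 and for the effect by tissue from 1 to 3. Interactions of the E11.5 kind ran from 44 to 66 and of the E8.5 kind from 20 to 73. Both ranges lie above the counts from all libraries, 40 and 19. The rule was then applied to fewer libraries, so these ranges do not measure stability.

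Replicate numbers did not pair the samples (correlations of deviations -0.034 to 0.014). With the replicate number as a block, calls were 1083 for Ezh2cKO in cis, 1091 at 100 kb or more, 232 under 100 kb and 98 in trans, 2968, 3105 and 18 for the stage in cis, at 100 kb or more and in trans, 1133, 931 and 54 for the 36 kb deletion in cis, at 100 kb or more and in trans, 179 and 59 for the 42 kb deletion and 25 for PA2. Read depth is unknown, so a missing call may be one below the score limit. Batch, which is different for every library, cannot be told apart from the groups.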
